A study of Mus musculus with 14 samples.

Results

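RANK ligand, its receptor RANK and genes of the NF-kB pathway that the receptor engages were followed in the mammary epithelium of virgin and pregnant mice. The 9 genes were Tnfsf11, Tnfrsf11a, Traf2, Traf6, Birc3, Nfkb1, Nfkb2, Relb and Ccnd1, and each array probe whose platform gene symbol was one of these names was taken. Of the 9 genes, 8 had a probe, among 19057 genes with a symbol on the array, and they held 14 of its 45281 probes. Nfkb1 is named only. Of the 14 probes, 13 were tested, meaning that they had a detection p below 0.05 on at least 3 of the 14 arrays. The remaining probe, 1 of 5 for Traf6, was detected on 0 arrays.

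RANK ligand (Tnfsf11) is a cytokine of the tumour necrosis factor family, and RANK (Tnfrsf11a) is the cell surface receptor that binds it. The receptor has no enzyme activity of its own and recruits TRAF adaptor proteins, which activate the IkB kinases and so free NF-kB dimers to enter the nucleus. In the alternative branch of the pathway the precursor protein encoded by Nfkb2 is processed and works with RelB. In the mouse mammary gland, RANK ligand is known as a mediator of progesterone that is made by luminal cells and is needed for the alveoli to form in pregnancy, and cyclin D1 (Ccnd1) has been placed downstream of it.

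RNA came from FACS-sorted mammary cells of female FVB/NJ mice, virgin or at day 12.5 of pregnancy (12.5 dP). Cells lacking the blood, endothelial and erythroid markers CD45, CD31 and TER119 were divided into a MaSC-enriched population (CD29hiCD24+), which holds basal and myoepithelial cells and the mammary stem cell activity, and a luminal population (CD29loCD24+). Each population had 3 arrays from virgin and 4 from pregnant mice, and the design gives 3 pools of virgin and 4 pools of pregnant mice, with a stated sort purity above 90%. The labels name no transgene and no agent. How many animals a pool held and whether the 2 populations with 1 replicate number came from 1 pool is not stated in the labels.

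Of the basal epithelial markers, 9 of 9 tested were higher in virgin MaSC-enriched than in virgin luminal cells and 7 of 9 in pregnancy, and 10 of 11 luminal markers were lower in both states. The arrays sat on 4 chips. Virgin MaSC-enriched replicate 2 was alone on chip 2, and the arrays of its group correlated at 0.909 to 0.942, against 0.949 to 0.990 within the other groups. That array was low for several genes below, so values without it are given. The arrays had median raw intensities between 105 and 165 units, and 34.8% to 42.3% of probes were detected. Signals below are log2 values after background correction and quantile normalization, and each difference is on that log2 scale with its standard error (SE). P-values are from limma, adjusted by Benjamini-Hochberg over 20906 probes, with a threshold of 0.05.

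In luminal cells RANK ligand and RANK were the 2 of 8 tested genes that passed the threshold between pregnant and virgin mice, and both rose. The share of all 11350 tested genes that passed in this comparison was 21.8%. In MaSC-enriched cells only RANK passed, 1 of 8 genes, where 5.14% of all genes did, and it also rose. The median difference of the 8 genes was 0.56 in luminal and 0.39 in MaSC-enriched cells, beside 0.05 and 0.03 over all genes. Between populations, the count was 3 of 8 in virgin mice (32.1% of all genes) and 4 of 8 in pregnant mice (43.2%). RANK was the member higher in MaSC-enriched cells in both states, as were 15.5% of all genes in virgin and 20.2% in pregnant mice. Lower there were Traf2 and Birc3 in virgin mice (16.6% of all genes), and Tnfsf11, Traf6 and Nfkb2 in pregnant mice (23% of all genes). In pregnancy 10.9% of all genes rose and 10.9% fell in luminal cells, and 2.83% rose and 2.31% fell in MaSC-enriched cells.

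**Figure D1:**
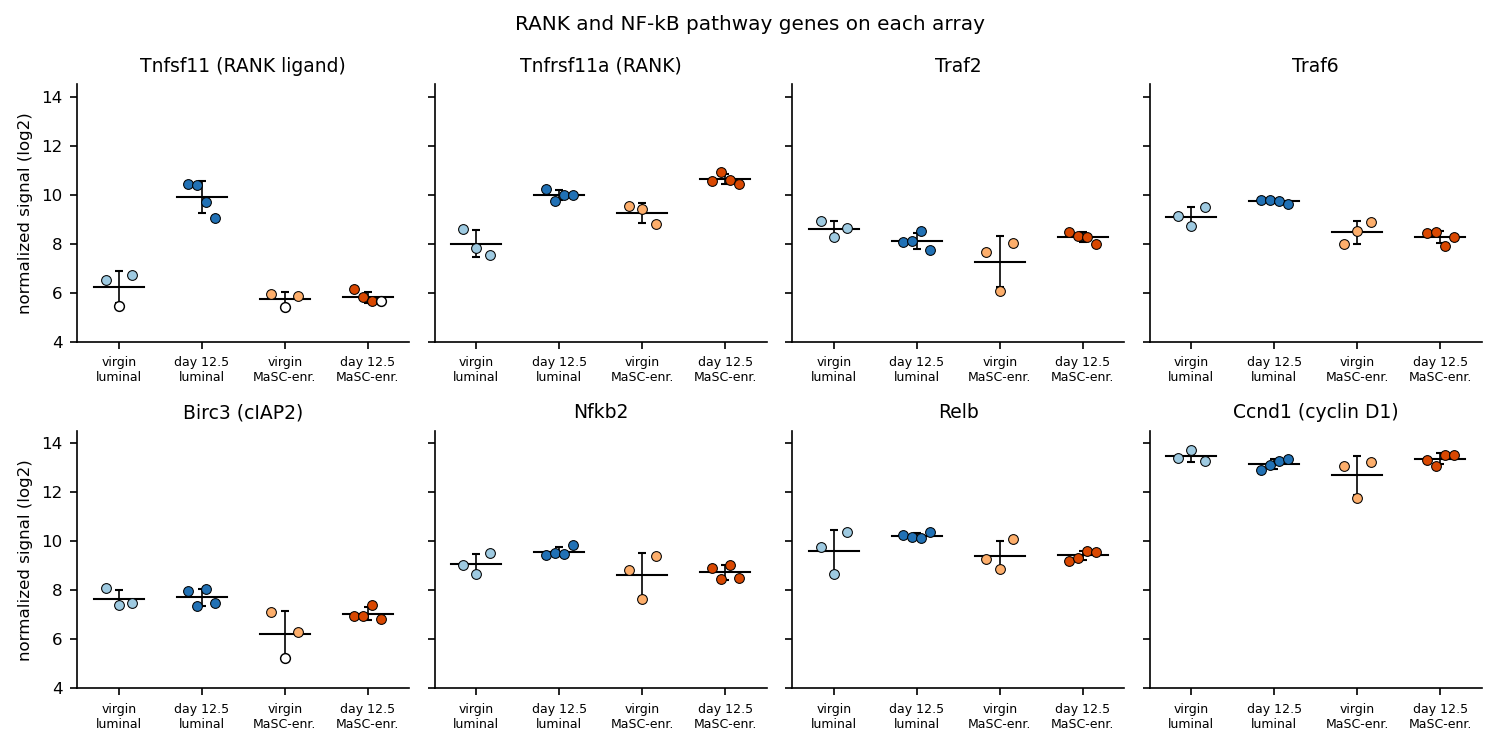
Normalized signal (log2) of 8 genes on each of the 14 arrays, by group. Points are arrays, open points are arrays on which the probe was not detected, and bars are group means with SD. Tnfsf11 is high on the 4 pregnant luminal arrays, from 9.05 to 10.46, and at or below 6.72 on all other arrays.

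Tnfsf11 encodes the ligand. Its log2 signal on the virgin luminal arrays was 6.50, 5.48 and 6.72 in replicates 1 to 3, and on the pregnant luminal arrays it was 10.46, 10.42, 9.71 and 9.05 in replicates 1 to 4. On the MaSC-enriched arrays it was 5.95, 5.40 and 5.86 in virgin mice and 6.15, 5.81, 5.65 and 5.67 in pregnant mice. The pregnant luminal arrays were thus apart from the other 3 groups, which overlapped each other. The probe was detected on 4 of 4 pregnant luminal arrays, 2 of 3 virgin luminal, 2 of 3 virgin MaSC-enriched and 3 of 4 pregnant MaSC-enriched arrays. In raw units the mean intensity of the luminal groups was 198 in virgin and 1030 in pregnant mice.

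The rise in luminal cells was 3.68 (SE 0.35, adjusted p = 3.19e-06), a 12.8-fold difference. In MaSC-enriched cells the pregnancy difference was 0.08 with a 95% interval of -0.67 to 0.83 (adjusted p = 0.932). The difference between these pregnancy differences was tested directly and was -3.59 (SE 0.50, adjusted p = 0.000411). Tnfsf11 was the 1 member of 8 that passed in that interaction test, where 8.76% of all genes did, 5.37% with a positive and 3.39% with a negative value. In pregnant mice the ligand was lower in MaSC-enriched than in luminal cells (-4.09, SE 0.32, adjusted p = 1.06e-07). In virgin mice the difference was -0.50 (adjusted p = 0.365). In sorted bulk samples, fewer cells of a type and less RNA per cell cannot be told apart.

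The luminal rise was seen on each chip that held both groups. It was 3.93 on chip 1, 4.24 on chip 3 and 2.33 on chip 4. With chip as a block in the model it was 3.57 and the interaction was -3.25. Without background correction the Tnfsf11 values were nearer 0, at 2.47 for the luminal rise and -2.64 between populations in pregnancy, both past the threshold. Lymphocytes can also make RANK ligand. Of 13 lymphocyte markers 2 were tested, Cd3e and Thy1, and 0 passed between pregnant and virgin luminal cells in limma, also at an unadjusted p under 0.05. The other 11, among them Cd4 and Cd8a, had no probe here or were too dim to test. The summed signal of the tested pair was 7.35 to 8.23 on virgin and 7.29 to 9.29 on pregnant luminal arrays. It mostly follows Thy1, with virgin and pregnant luminal means of 7.31 and 8.04, against 5.81 and 6.45 for Cd3e.

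Tnfrsf11a encodes RANK, the receptor. Its log2 signal was 8.61, 7.84 and 7.56 on the virgin luminal arrays and 10.26, 9.75, 9.98 and 10.01 on the pregnant luminal arrays. It was 9.55, 9.40 and 8.79 on the virgin MaSC-enriched arrays and 10.58, 10.92, 10.60 and 10.43 on the pregnant MaSC-enriched arrays. The 4 groups did not overlap and ran from pregnant MaSC-enriched through pregnant luminal and virgin MaSC-enriched to virgin luminal. RANK was the only member whose 4 groups were all apart. The share of all genes with this pattern was not counted, and in single comparisons 16.5% to 50% of all genes did not overlap.

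RANK rose in pregnancy by 1.99 in luminal cells (SE 0.26, 3.98-fold, adjusted p = 6.4e-05) and by 1.38 in MaSC-enriched cells (SE 0.26, 2.61-fold, adjusted p = 0.00661). The interaction was -0.61 with a 95% interval of -1.40 to 0.18 (adjusted p = 0.371), so a different size of response in the populations was not shown. In virgin mice RANK was 2.37-fold higher in MaSC-enriched than in luminal cells (1.25, SE 0.28, adjusted p = 0.00319). In pregnant mice it was 1.55-fold higher (0.63, SE 0.24, adjusted p = 0.0489). Under median scaling, which moved the median difference of all genes from 0.03 to -0.07 in MaSC-enriched cells, the rise of Tnfrsf11a there was 1.22, or 1.29 above that median, with an adjusted p of 0.0646. With array weights, which weigh each array by how far it departs from its group, it was 1.27 with an adjusted p of 0.0631.

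On chip 4, the 1 chip with both MaSC-enriched groups, the rise of Tnfrsf11a was 1.64. In luminal cells it was 1.39, 2.14 and 2.45 on chips 1, 3 and 4, and MaSC-enriched minus luminal was 0.94 and 1.24 in virgin mice and 0.72 and 0.42 in pregnant mice. With chip as a block the population difference in pregnancy was 0.80 (adjusted p = 0.0196). That call was lost without any of 8 arrays, which were pregnant MaSC-enriched replicates 1, 2, 3 and 4, pregnant luminal replicates 2, 3 and 4 and virgin luminal replicate 2. Without pregnant MaSC-enriched replicate 2 the difference was 0.54 (adjusted p = 0.133), without pregnant luminal replicate 2 it was 0.55 (adjusted p = 0.128), and the other 6 gave 0.63 to 0.70 with adjusted p-values of 0.0555 to 0.0860. The virgin population difference was 0.88 with array weights (adjusted p = 0.0612).

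Some basal markers moved in the same direction as RANK in luminal cells. Of 9 tested, 4 were higher in pregnant than in virgin luminal cells, among them the basal keratin Krt14, smooth muscle actin Acta2 and the smooth muscle myosin Myh11. The others did not pass. Among these, virgin and pregnant luminal means were 9.59 and 9.32 for Krt17, 6.25 and 7.54 for Trp63 and 9.55 and 10.04 for Itga6. Krt5 and Cnn1 were detected on 0 luminal arrays. The summed signal of the list was 12.2 to 14.4 on virgin luminal, 14.8 to 15.1 on pregnant luminal and 16.67 to 17.02 on MaSC-enriched arrays. In MaSC-enriched cells 0 of 9 basal markers passed in pregnancy in limma, also at an unadjusted p under 0.05, where 6 of 8 milk genes rose and 2 of 11 luminal markers did, Cldn3 and Elf5. Of the 6 other leukocyte, 3 erythroid, 6 fibroblast and 2 adipocyte markers tested, Cd74 and Col1a1 rose and Dcn fell in luminal cells in pregnancy, and Lep rose in MaSC-enriched cells. Of the 2 tested lymphocyte markers, Cd3e rose in MaSC-enriched cells in pregnancy by 1.56 (adjusted p = 0.0230). Both Cd3e and Thy1 were higher in MaSC-enriched than in luminal cells of pregnant mice (1.54 and 1.96), and Thy1 in virgin mice (2.24). Their summed signal was 9.35 to 10.33 on virgin and 9.90 to 10.99 on pregnant MaSC-enriched arrays. The summed signal of the other leukocyte markers was 9.02 to 9.63 on virgin and 10.26 to 10.99 on pregnant luminal arrays. The part of these cell markers in the values of RANK ligand and RANK was not tested.

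**Figure D2:**
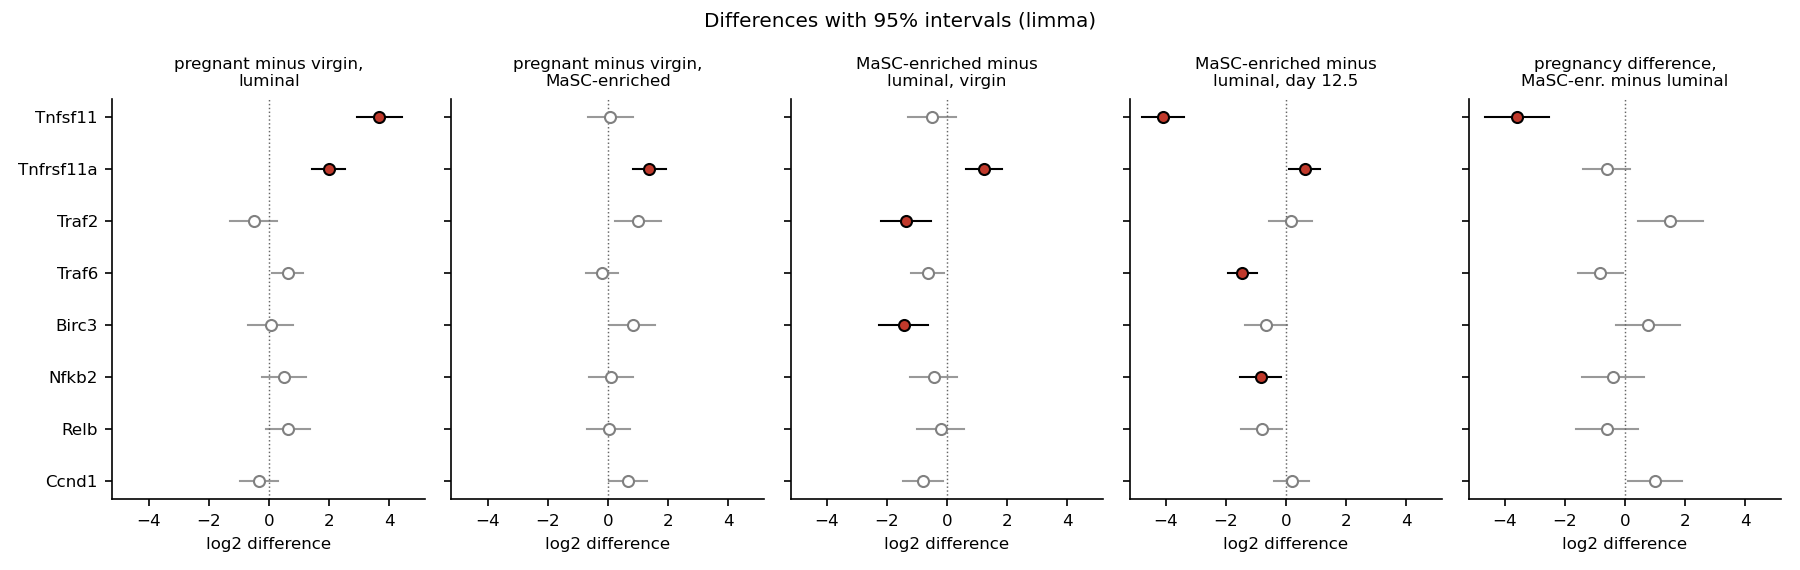
Log2 differences of 8 genes in 5 comparisons, with 95% intervals from limma. Filled points passed the threshold (adjusted p below 0.05) and open points did not; the 2 pregnancy panels hold 3 filled points, Tnfsf11 and Tnfrsf11a in luminal and Tnfrsf11a in MaSC-enriched cells.

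Promoter windows from RefSeq on GRCm38.p6, 250 bases before to 50 after each start site, were found for 6 of the 9 genes. The windows of the ligand and the receptor, the 2 genes that rose in pregnancy, were searched on both strands for the NF-kB consensus, the STAT motif TTCNNNGAA and the steroid receptor element TGTTCT. Of 32851 mouse promoter windows of the same length, 4.51%, 8.3% and 19% held these motifs. Neither window held any of them, and no letter is in capitals. The first lies at chr14:78307994-78308293 on the minus strand and the second at chr1:105780473-105780772 on the plus strand.
Tnfsf11: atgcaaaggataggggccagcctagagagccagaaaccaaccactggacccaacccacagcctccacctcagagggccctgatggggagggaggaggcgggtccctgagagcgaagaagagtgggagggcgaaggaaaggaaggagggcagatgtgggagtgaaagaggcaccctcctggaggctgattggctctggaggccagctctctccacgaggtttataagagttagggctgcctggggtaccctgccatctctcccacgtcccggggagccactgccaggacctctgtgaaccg
Tnfrsf11a: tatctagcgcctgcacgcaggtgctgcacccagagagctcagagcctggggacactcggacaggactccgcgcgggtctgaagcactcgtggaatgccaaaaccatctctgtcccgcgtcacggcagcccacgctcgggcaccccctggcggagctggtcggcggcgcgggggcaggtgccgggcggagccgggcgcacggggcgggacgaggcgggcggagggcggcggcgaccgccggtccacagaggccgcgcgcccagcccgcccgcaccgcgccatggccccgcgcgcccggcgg

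Traf2 encodes a RING finger adaptor that brings cIAP ubiquitin ligases to receptors of this family. Its log2 signal was 7.67, 6.09 and 8.04 on virgin MaSC-enriched, 8.49, 8.32, 8.28 and 8.01 on pregnant MaSC-enriched, 8.92, 8.27 and 8.66 on virgin luminal and 8.08, 8.12, 8.50 and 7.73 on pregnant luminal arrays. Replicate 2 of the virgin MaSC-enriched group was the lowest of the 14 arrays, and only the virgin groups did not overlap. In virgin mice Traf2 was 2.54-fold lower in MaSC-enriched than in luminal cells (-1.35, SE 0.39, adjusted p = 0.0162). Without virgin MaSC-enriched replicate 2 this difference was -0.76 (adjusted p = 0.0449), without virgin luminal replicate 1 it was -1.20 (adjusted p = 0.0683), with chip as a block it was -0.72 (adjusted p = 0.0725), and without background correction it was -0.85. On chips 1 and 4 it was -1.25 and -0.62. The Traf2 pregnancy difference in MaSC-enriched cells was 1.01 (SE 0.36, adjusted p = 0.144). Leaving out virgin MaSC-enriched replicate 2 gave 0.42. It was 1.39 (adjusted p = 0.0427) without virgin MaSC-enriched replicate 3. In luminal cells it was -0.51 (adjusted p = 0.386). The interaction was 1.51 (SE 0.51, adjusted p = 0.0932), and it passed without virgin MaSC-enriched replicate 3 (1.90, adjusted p = 0.0246). Leaving out the low virgin MaSC-enriched replicate 2 gave 0.93 (adjusted p = 0.0890), and chip as a block gave 0.85 (adjusted p = 0.199).

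Traf6 encodes the adaptor and ubiquitin ligase that RANK uses to reach the classical NF-kB and MAP kinase branches. By its brightest probe it was 9.12, 8.71 and 9.50 on virgin luminal, 9.78, 9.78, 9.76 and 9.62 on pregnant luminal, 7.97, 8.54 and 8.89 on virgin MaSC-enriched and 8.44, 8.49, 7.92 and 8.26 on pregnant MaSC-enriched arrays. The pregnant luminal arrays were above all others, and the remaining neighbouring groups overlapped. In pregnant mice Traf6 was 2.75-fold lower in MaSC-enriched than in luminal cells (-1.46, SE 0.23, adjusted p = 0.000105). The other 3 tested probes gave -0.89, -1.31 and -1.64, each past the threshold, as 39.5% of all tested probes were, though the probe at -0.89 was detected on 0 pregnant MaSC-enriched arrays and supports a fold of at least 1.29. The difference was -1.48 on chip 3 and -1.35 on chip 4.

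In virgin mice, where 29.2% of all tested probes passed, the Traf6 difference was -0.64 by the brightest probe (adjusted p = 0.0808). Of the other 3 tested probes, 2 passed there (-0.92, adjusted p = 0.00837, and -0.97, adjusted p = 0.0163) and 1 did not (-0.45, adjusted p = 0.324), and the mean of the 4 passed (-0.75, adjusted p = 0.0157). The brightest probe passed without virgin luminal replicate 2 (-0.84, adjusted p = 0.0401), and leaving out virgin MaSC-enriched replicate 3 gave -0.85 (adjusted p = 0.0258). Between pregnant and virgin luminal cells it differed by 0.62 (SE 0.24, adjusted p = 0.0916), which passed without virgin luminal replicate 3 (0.82, adjusted p = 0.0448), while the probe with the lowest signal of the 4 gave -0.45 (adjusted p = 0.270). In MaSC-enriched cells the pregnancy difference was -0.19 by the brightest probe (adjusted p = 0.732). The other 3 tested probes gave -0.37, -0.60 and -0.59 there (adjusted p = 0.484, 0.300 and 0.169).

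**Figure D3:**
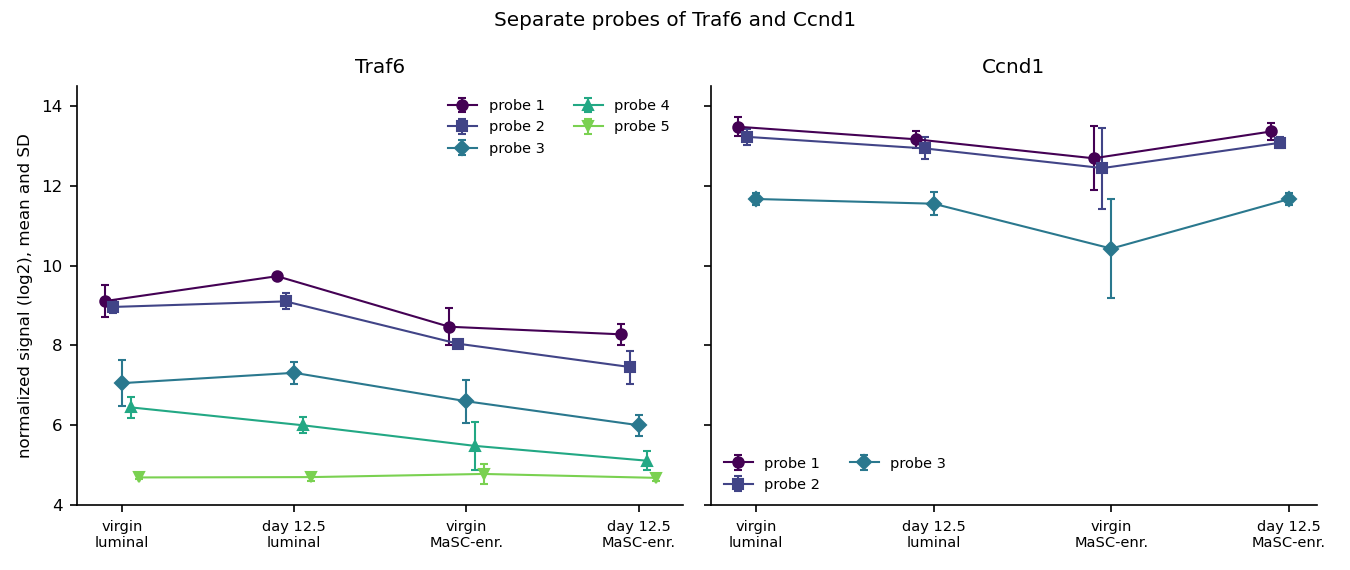
Group means with SD of normalized signal (log2) for the separate probes of Traf6 (5 probes) and Ccnd1 (3 probes), numbered from the brightest. Levels of different probes are not comparable; within each of the 4 tested Traf6 probes the pregnant MaSC-enriched mean is below the pregnant luminal mean, and the fifth was detected on 0 arrays.

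Birc3 encodes cIAP2, a ubiquitin ligase carried by TRAF2 whose gene is also a known target of NF-kB. Its log2 signal was 7.11, 5.24 and 6.30 on virgin MaSC-enriched, 6.96, 6.97, 7.41 and 6.83 on pregnant MaSC-enriched, 8.08, 7.41 and 7.48 on virgin luminal and 7.99, 7.35, 8.05 and 7.49 on pregnant luminal arrays. The virgin groups did not overlap, and replicate 2 was the lowest array and the 1 on which the probe was not detected. In virgin mice Birc3 was 2.71-fold lower in MaSC-enriched than in luminal cells (-1.44, SE 0.38, adjusted p = 0.00922). Without virgin MaSC-enriched replicate 2 the Birc3 difference was -0.95 (adjusted p = 0.0343), with chip as a block it was -0.92 (adjusted p = 0.0317), and without background correction it was -0.71 (adjusted p = 0.0130). In pregnant mice it was -0.68 (SE 0.33, adjusted p = 0.116), which passed without that virgin array (adjusted p = 0.0384). The Birc3 pregnancy difference was 0.06 in luminal cells (adjusted p = 0.942). In MaSC-enriched cells it was 0.82 (adjusted p = 0.224), 0.34 without virgin MaSC-enriched replicate 2 and 1.27 (adjusted p = 0.0380) without virgin MaSC-enriched replicate 1.

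Nfkb2 and Relb encode the partners of the alternative NF-kB dimer. Nfkb2 was 9.04, 8.66 and 9.51 on virgin luminal, 9.45, 9.51, 9.50 and 9.84 on pregnant luminal, 8.82, 7.64 and 9.42 on virgin MaSC-enriched and 8.92, 8.44, 9.04 and 8.52 on pregnant MaSC-enriched arrays. Relb was 9.78, 8.67 and 10.37 on virgin luminal, 10.24, 10.19, 10.12 and 10.38 on pregnant luminal, 9.27, 8.86 and 10.08 on virgin MaSC-enriched and 9.20, 9.33, 9.59 and 9.57 on pregnant MaSC-enriched arrays. For both genes the pregnant luminal and pregnant MaSC-enriched arrays did not overlap, and the virgin arrays of each population spread over more than the pregnant ones.

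In pregnant mice Nfkb2 was 1.79-fold lower in MaSC-enriched than in luminal cells (-0.84, SE 0.31, adjusted p = 0.0451), and Relb differed by -0.81 (SE 0.32, adjusted p = 0.0551). The Nfkb2 call was lost without any of 8 arrays, which were pregnant luminal replicates 1, 2, 3 and 4, pregnant MaSC-enriched replicates 1, 2 and 4 and virgin luminal replicate 1 (-0.74 to -0.90, adjusted p = 0.0575 to 0.114). It was -0.69 on chip 3 and -1.32 on chip 4, and under cyclic loess and median scaling its adjusted p was 0.0847 and 0.100. Relb passed without any of virgin MaSC-enriched replicates 2 and 3 and virgin luminal replicates 2 and 3 (adjusted p = 0.0166 to 0.0416). Its adjusted p was 0.0455 without background correction, 0.0480 with an offset of 50, 0.0487 with the deposited values and 0.0495 with a stricter filter on dim probes. Under median scaling and cyclic loess Relb did not pass (adjusted p = 0.0777 and 0.101). In virgin mice the population difference was -0.44 for Nfkb2 (adjusted p = 0.406) and -0.21 for Relb (adjusted p = 0.729). Without virgin MaSC-enriched replicate 2 these turned to 0.05 for Nfkb2 and 0.07 for Relb. Between pregnant and virgin luminal cells Nfkb2 differed by 0.50 (adjusted p = 0.354) and Relb by 0.63 (adjusted p = 0.239). In MaSC-enriched cells the pregnancy differences were 0.10 for Nfkb2 and 0.02 for Relb, with adjusted p-values of 0.909 and 0.983.

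Nfkb2 has 3 promoter windows in the RefSeq table, and all 3 held the NF-kB consensus, which 4.51% of all windows hold. They share a match, since 2 of the 3 overlap. Windows of Traf2, Traf6 and Birc3 held none of the 3 motifs. The first Nfkb2 window lies at chr19:46304487-46304786 on the plus strand of GRCm38.p6. Capitals mark a STAT motif match at position 103, overlapping NF-kB matches at positions 212 and 213 and a further NF-kB match at position 240, counted from 1 at the 5′ end.
Nfkb2: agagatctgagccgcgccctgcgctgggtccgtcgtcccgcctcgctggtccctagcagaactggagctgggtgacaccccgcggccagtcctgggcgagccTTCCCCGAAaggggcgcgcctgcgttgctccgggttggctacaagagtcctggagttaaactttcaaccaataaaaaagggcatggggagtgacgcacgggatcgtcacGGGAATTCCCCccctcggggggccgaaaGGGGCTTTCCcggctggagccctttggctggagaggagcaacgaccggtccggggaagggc

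Ccnd1 encodes cyclin D1, the cyclin that partners CDK4 and CDK6 in G1. By its brightest probe its log2 signal was 13.40, 13.74 and 13.30 on virgin luminal, 12.90, 13.11, 13.27 and 13.38 on pregnant luminal, 13.05, 11.77 and 13.24 on virgin MaSC-enriched and 13.30, 13.07, 13.54 and 13.53 on pregnant MaSC-enriched arrays. All neighbouring groups overlapped, and virgin MaSC-enriched replicate 2 was below every other array. Ccnd1 passed in 0 of 5 comparisons by this probe in limma, with an unadjusted p under 0.05 in 3 of them. The pregnancy difference was 0.67 in MaSC-enriched cells (SE 0.30, adjusted p = 0.237) and -0.31 in luminal cells (adjusted p = 0.533). Without virgin MaSC-enriched replicate 2 the former was 0.21. In virgin mice the Ccnd1 difference between populations was -0.79 (SE 0.32, adjusted p = 0.0762), -0.33 without that array and -1.07 (adjusted p = 0.0207) without virgin MaSC-enriched replicate 3. Of the other 2 Ccnd1 probes, 1 passed in virgin mice (-1.24, adjusted p = 0.0395). Its virgin MaSC-enriched values were 11.64, 9.15 and 10.49, lowest in replicate 2, and it was not fitted without that array. Its pregnancy difference in MaSC-enriched cells was 1.24 (adjusted p = 0.0994). In pregnant mice the brightest probe differed by 0.20 (adjusted p = 0.611).

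No overlap between the arrays of the compared groups was seen for 1 of 8 members between pregnant and virgin MaSC-enriched cells (16.5% of all genes), 3 of 8 between pregnant and virgin luminal cells (33.8%), 4 of 8 between populations in virgin mice (37.7%) and 5 of 8 in pregnant mice (50%). Proliferation markers stood beside the Ccnd1 values. Of 9 tested, 8 were higher in pregnant than in virgin luminal cells and 4 in MaSC-enriched cells, among them the mitotic kinases Cdk1, Plk1 and Aurka.

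A further 111 genes of the pathway were listed, of which 87 were tested. In luminal cells 8 of the 87 rose and 17 fell in pregnancy (10.9% and 10.9% of all genes). In MaSC-enriched cells 2 rose and 5 fell (2.83% and 2.31%). Between populations 14 were higher and 21 lower in MaSC-enriched cells of virgin mice (15.5% and 16.6%). In pregnant mice 18 were higher and 17 lower (20.2% and 23%). These shares of all genes also stand beside each list below. Among decoy receptors and adaptors, 5 of 8 genes were tested. Tnfrsf11b encodes osteoprotegerin, the soluble decoy that binds RANK ligand. Its mean log2 signal was 9.43 in virgin and 9.38 in pregnant MaSC-enriched cells, 4.78 in virgin luminal cells, where it was detected on 0 of 3 arrays, and 6.14 in pregnant luminal cells, where it was detected on 3 of 4. It was at least 13.9-fold higher in MaSC-enriched than in luminal cells of virgin mice (adjusted p = 1.05e-06), and 3.24 higher on the log2 scale in pregnant mice (SE 0.38, adjusted p = 7.47e-06). In luminal cells Tnfrsf11b rose at least 1.43-fold in pregnancy (adjusted p = 0.0308). For a fold given as at least, the dim group is set to the lowest signal that was detected on each array. In pregnant glands the ligand was thus higher in luminal cells and the receptor and the decoy were higher in MaSC-enriched cells, the receptor by the margin given above.

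The adaptor Traf1 was at least 3.61-fold lower in pregnant than in virgin luminal cells (adjusted p = 4.96e-05) and was detected on 0 of 4 pregnant luminal arrays. Its interaction also passed (adjusted p = 0.0434). Traf5 was at least 2.38-fold higher in MaSC-enriched than in luminal cells of virgin mice and at least 4.42-fold higher in pregnant mice (adjusted p = 0.000528 and 8.68e-07). In MaSC-enriched cells 0 of the 5 tested genes of this list passed in pregnancy in limma, and 3 had an unadjusted p under 0.05.

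**Figure D4:**
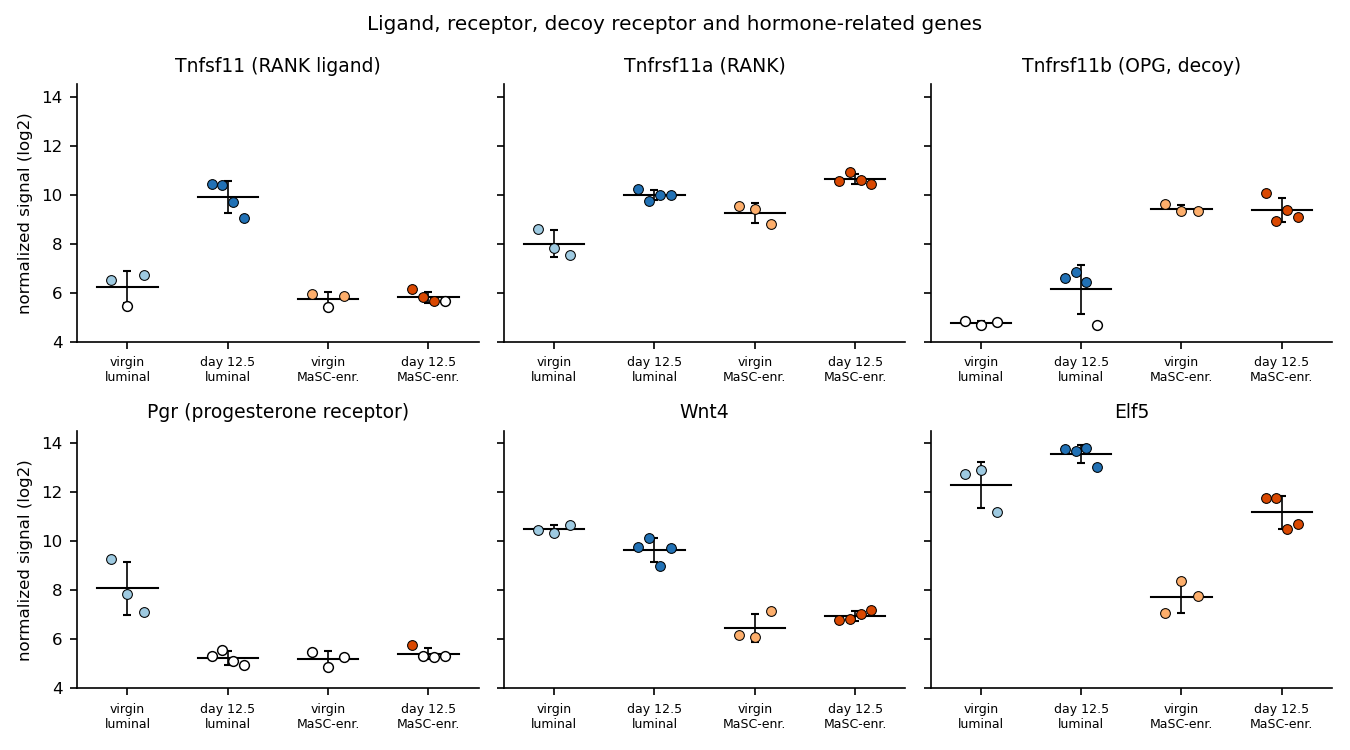
Normalized signal (log2) on each array for the ligand, receptor and decoy receptor and for 3 hormone-related genes, by group. Points are arrays, open points are arrays on which the probe was not detected, and bars are group means with SD. Pgr is open on all 4 pregnant luminal arrays, while Tnfsf11 lies between 9.05 and 10.46 on the same arrays.

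Of 11 tested hormone receptors, hormone mediators and related luminal genes, 7 were lower in pregnant than in virgin luminal cells and the other 4 did not pass. The progesterone receptor Pgr had a mean of 8.08 on virgin luminal arrays and 5.24 on pregnant luminal arrays, where it was detected on 0 of 4, a fall of at least 4.81-fold (adjusted p = 6.4e-05). Foxa1, a pioneer factor of hormone-sensing cells, fell by 3.90, Cited1, a cofactor of estrogen receptor, fell by 3.44, and the T-box factor Tbx3 fell by 3.28 on the log2 scale. RANK ligand thus rose in the luminal population in which the signal of these genes fell, and both values are means over mixed luminal cells. Foxa1 and Cited1 also fell in MaSC-enriched cells in pregnancy, where Tnfsf11 did not pass. Foxa1 was 6.76 to 7.96 on virgin and 4.94 to 5.61 on pregnant MaSC-enriched arrays. Elf5, an alveolar transcription factor, rose by 3.44 in MaSC-enriched cells (SE 0.44, adjusted p = 0.000346). Wnt4, another progesterone-regulated ligand, was lower in MaSC-enriched than in luminal cells in both states (-4.01 in virgin and -2.69 in pregnant mice), and it did not pass in either pregnancy comparison. In the interaction, 6 of these 11 genes passed (8.76% of all genes), with Pgr at 3.05, Tbx3 at 2.77, Elf5 at 2.15 and Prom1 at 2.09, whereas Tnfsf11 had the opposite sign. Pgr was 4.87 to 5.47 on virgin and 5.27 to 5.75 on pregnant MaSC-enriched arrays, near its undetected pregnant luminal level. Its interaction thus repeats its luminal fall and is bounded by the detection limit, while Elf5 rose in MaSC-enriched cells.

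Of 13 tested kinases and ubiquitin ligases of the pathway, 1 passed between pregnant and virgin luminal cells. It was Ikbkg, which encodes the regulatory subunit of the IkB kinase complex, and it fell by 0.65 (adjusted p = 0.0351). In MaSC-enriched cells 0 passed in limma, also at an unadjusted p under 0.05. Ikbkg was also lower in MaSC-enriched than in luminal cells in virgin mice (-1.64, adjusted p = 3.18e-05) and in pregnant mice (-0.64, adjusted p = 0.0141). The catalytic subunit Ikbkb was lower there in pregnant mice (-0.66) and Ikbke, a related kinase, was higher (1.28). The adaptor Tradd was lower in virgin mice (-1.31).

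Among 12 NF-kB subunits and inhibitors, 3 were lower in MaSC-enriched than in luminal cells in each state and the other 9 did not pass. That was 25% of the list in each state. Of all genes, 32.1% passed in virgin and 43.2% in pregnant mice, with 16.6% and 23% lower. Nfkbia, which encodes the inhibitor IkB alpha and is itself induced by NF-kB, was lower in both (-0.985 and -1.004, adjusted p = 0.00266 and 0.000518). Tnfaip3 and Cyld, deubiquitinases that restrain the pathway, were lower in virgin mice (-1.16 and -0.83), and Nfkbid and Bcl3, atypical IkB proteins, in pregnant mice (-1.08 and -1.87). Bcl3 also fell in MaSC-enriched cells in pregnancy, by 1.80 (adjusted p = 0.0290), and the deubiquitinase Otud7b fell in luminal cells, by 0.61 (adjusted p = 0.0452). Rela, the classical subunit, differed by -0.58 in MaSC-enriched and -0.38 in luminal cells between pregnant and virgin mice (adjusted p = 0.153 and 0.246).

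Of 20 tested NF-kB target genes, 4 rose and 2 fell in luminal cells in pregnancy. The adhesion molecule Vcam1 rose by 1.43, the chemokine Ccl20 by 1.88, Il1b by 1.40 and Icam1 by 0.69, while the chemokine Ccl5 fell by 1.99 and the survival gene Bcl2 by 1.90. Bcl2 was the 1 target that passed in the interaction (1.91, adjusted p = 0.00983). In MaSC-enriched cells 1 target rose, Il1b, by at least 2.82-fold (adjusted p = 0.000769). Between populations the targets were split. In pregnant mice 8 were higher in MaSC-enriched cells, with Ccl2 at 3.36, Bcl2 at 2.30 and Il6 at 2.08, and 3 were lower, with Tnf at -2.25. In virgin mice 5 were higher, with Vcam1 at 3.72, Ccl2 at 2.83 and Csf1 at 2.72, and 3 were lower, with Tnf at -3.04. Of 6 tested endothelial markers, 6 were higher in MaSC-enriched than in luminal cells in pregnant and 1, Cd34, in virgin mice, with summed signals in pregnancy of 10.6 to 12.5 and 9.44 to 10.5. Of 6 fibroblast markers, 1 was higher in MaSC-enriched cells in pregnant mice, Dcn, with means of 14.35 and 11.80. Of 2 adipocyte markers, 1 was higher there in both states, Lep. The part of these markers in the values of these targets was not tested.

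Of 13 other TNF family ligands and receptors tested, 1 rose and 3 fell in luminal cells in pregnancy. The receptor Tnfrsf19 rose by 3.46 (SE 0.43, adjusted p = 3.89e-05) and, like Tnfsf11, had a negative interaction (-3.86, adjusted p = 0.00103). Tnfrsf1b and Cd40 were detected on 0 of 4 pregnant luminal arrays and fell by at least 1.41-fold and 1.67-fold, and Tnfrsf21 fell by 1.01 on the log2 scale. In MaSC-enriched cells Tnfsf13b and Ngfr, the neurotrophin receptor of basal cells, fell in pregnancy. Fas was higher in MaSC-enriched than in luminal cells in both states (1.40 and 1.27).

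Of 13 tested D cyclins and G1 genes, Ccnd2 differed most between populations, at 5.22 in virgin and 5.51 in pregnant mice, higher in MaSC-enriched cells (adjusted p = 8.27e-08 and 7.4e-09), whereas no Ccnd1 probe was higher there with a passing test. Myc was also higher in MaSC-enriched cells in both states (1.37 and 2.03). In luminal cells E2f1 and Mcm2 rose in pregnancy, by 1.70 and 1.18, and the CDK inhibitor Cdkn1a and the retinoblastoma gene Rb1 fell, by 1.55 and 1.20. In MaSC-enriched cells 0 of 13 passed in pregnancy, with 3 at an unadjusted p under 0.05 in limma.

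The genes whose signal over the 14 arrays was most like that of Tnfsf11 were Susd1, Mapk4, Oit1, Fads2 and Card14, with Pearson correlations of 0.98, 0.98, 0.97, 0.97 and 0.97. Most like Tnfrsf11a were Tcf7l1, Mocs2, Nrep, Gpc4 and Ttc23, at 0.93, 0.92, 0.92, 0.91 and 0.91. These arrays fall into 4 groups, so the correlations describe a shared group pattern and carry no p. For the ligand the pattern was a high pregnant luminal mean, such as 9.34 for Fads2 against 7.10 to 7.56 in the other groups. For the receptor it was a low virgin luminal mean, such as 9.70 for Tcf7l1 against 11.80 to 12.69 in the others.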

How the data were processed

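RNA of 14 samples was hybridised to Illumina mouse BeadChips, with 1 colour per array. The deposited non-normalized table held, per the file headers, a probe intensity in arbitrary units and a detection p-value for each probe and array. The deposited series matrix held log2 values, judged from the values to be background corrected and quantile normalized, and was used as an alternative. BeadStudio and limma are named in the submitters' processing notes, with no version. No genome build is given in the sources used here.

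Intensities were background corrected with the normexp model of limma 3.58.1 (R 4.3.3) from the detection p-values with an offset of 16, taken to log2 and quantile normalized. Probes with a detection p below 0.05 on at least 3 arrays were tested, 20906 of 45281 (46.2%). Platform annotation gave no symbol for 10378 probes and several for 18. A gene was represented by its brightest tested probe. A model with a mean per group was fitted to all 14 arrays with lmFit and eBayes, two-sided, with Benjamini-Hochberg adjustment over 20906 probes. The fit was tested on simulated data. The number of arrays limits the precision.

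The 9 members are named whatever their values. Of each pathway list, up to 4 passing genes with the largest difference in a comparison are named, or every gene where a count is 4 or fewer, of each marker list up to 3, and for Tnfsf11 and Tnfrsf11a the 5 most correlated genes, leaving out uncharacterised gene models. Rela, which did not pass, and the untested lymphocyte markers were named after their values were seen. Members and lists were chosen with earlier results of these data known. The alternatives were other background corrections, normalizations, filters and probe summaries, array weights, chip and replicate number as blocks, and leaving out each array.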

Additional observations from a re-analysis of the deposited data

Results flagged for a closer look

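Tnfsf11 was singled out because its response to pregnancy differed between the populations: subtracting the luminal pregnancy difference from that of MaSC-enriched cells gave -3.59 on the log2 scale (limma, adjusted p = 0.000411), with all 4 pregnant luminal arrays above every other array. In the pregnant luminal group, replicate 4 stood apart from the other 3 arrays for 2 genes. It was low for Traf6, at 9.62 against 9.76 to 9.78, and high for Nfkb2, at 9.84 against 9.45 to 9.51. These were 2 of 16 sets of 4 arrays examined with Dixon's criterion, and chance marks about 1 set in 20.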

How the results depend on the processing

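Across 25 tested alternative settings, 920 of 1000 member values kept direction and call, 26 lost a call, 29 gained one and 25 changed sign, none of the last called in the report; the causes were not tested. Passing members in MaSC-enriched cells in pregnancy numbered 1, 0 with median scaling and with array weights, and 1 to 2 without 1 array. In luminal cells they numbered 2, 6 with array weights and 2 to 3 without 1 array. Array weights added Traf2 at -0.70, Traf6 at 0.66, Nfkb2 at 0.47 and Relb at 0.49 there (limma, adjusted p = 0.00675, 0.00269, 0.0469 and 0.0460). The weights of virgin luminal replicates 1 to 3 were 5.89, 0.62 and 0.47. Between populations, passing members numbered 3 in virgin mice (2 to 5 without 1 array) and 4 in pregnant mice, 2 with median scaling and with no filter, and 2 to 6 without 1 array. In the interaction they numbered 1, 2 with array weights and 1 to 2 without 1 array. Tnfrsf11a between populations in pregnancy had an adjusted p of 0.127 with median scaling and 0.0782 with no filter. Nfkb2 had 0.0983 with no filter. Sign changes in MaSC-enriched cells in pregnancy were Nfkb2 at -0.026 with median scaling and -0.37 with chip as a block, Relb at -0.13 with median scaling, -0.024 with cyclic loess and -0.026 with replicate number as a block, and Tnfsf11 at -0.020 with array weights. Birc3 in luminal cells was -0.34, -0.062 and -0.29 with median scaling, cyclic loess and array weights, and Nfkb2 between virgin populations was 0.022 with chip as a block. Without 1 array the ranges were -0.39 to 0.50 for Nfkb2, -0.25 to 0.36 for Relb, -0.085 to 0.19 for Tnfsf11 and -0.44 to 0.021 for Traf6 in MaSC-enriched cells, -0.063 to 0.27 for Birc3 in luminal cells, and -0.84 to 0.050 for Nfkb2 and -0.67 to 0.18 for Relb between virgin populations. Same-numbered arrays of the 2 populations deviated from their group means with correlations of 0.05 to 0.42 in virgin and -0.17 to 0.09 in pregnant mice. For differently numbered arrays these were -0.45 to 0.08 in virgin and -0.29 to 0.45 in pregnant mice. The same-numbered values thus reached higher in virgin mice and did not in pregnant mice, which does not settle whether pools were shared. The labels state no pairing, and the main model used none. With the pool as a replicate block 2 members passed in the interaction, Traf2 added at 1.51 (adjusted p = 0.0344). Between pregnant populations 6 passed with that block, Birc3 and Relb added at -0.68 and -0.81 (adjusted p = 0.0345 and 0.00581). Median scaling moved the median of all genes in luminal cells in pregnancy from 0.05 to -0.16 and in the interaction from -0.02 to 0.10, and cyclic loess moved it between pregnant populations from -0.10 to 0.02. The share of calls that were higher went from 50.1% to 27.5% in luminal cells, 55.1% to 39.5% in MaSC-enriched cells and 61.3% to 72.6% in the interaction under median scaling. Of 87 tested pathway genes, 8 rose and 17 fell in luminal cells in pregnancy, where 10.9% of all genes rose and 10.9% fell. The rising number was 4 with median scaling and 5 with no filter.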
